A study of Mus musculus with 6 samples.

Results

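The enzymes that build heme were followed in mouse spleens, comparing AIMP2-DX2 overexpression with littermate controls. The listed genes were 8, in pathway order Alas1 and Alas2, Alad, Uros, Urod, Cpox, Ppox and Fech. They were chosen by name, with earlier results of these data known. A gene was taken from a probe set annotated to its symbol alone, which held for 7 of the 8 among 22180 genes measured that way, each of the 7 with 1 probe set. Alas2 was left out of the counts because its probe set is annotated to Apex2 as well. That shared probe set is described separately.

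The 6 arrays each hold total RNA from the spleen of 1 mouse aged 1 year. The 3 DX2 mice had the genotype CAG-rtTA with TRE DX2/+, in which the doxycycline-dependent activator rtTA, driven by the broadly active CAG promoter, switches on a DX2 transgene. DX2 is a shortened splice form of AIMP2, which holds several tRNA synthetases together in a complex. The 3 control littermates carried TRE DX2/+ without rtTA, and both groups were given doxycycline pellets (6.25 mg per kg) starting at 8 weeks of age. Effects of DX2 and of rtTA therefore cannot be told apart, and the labels name the samples of each group biological replicates. All values are log2 expression, and a difference is DX2 minus control. Precision is limited by there being 3 arrays in a group.

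Heme is made by a pathway that starts and ends in the mitochondrion and runs through the cytosol in between. Aminolevulinate synthase joins glycine to succinyl-CoA, and this committed step has a housekeeping isoenzyme, ALAS1, and an erythroid one, ALAS2. The intermediate is then condensed and cyclised in the cytosol, oxidised in the mitochondrion and loaded with iron by ferrochelatase. In adult mice the red pulp of the spleen still makes red cells, so erythroid precursors, which produce heme for hemoglobin in bulk, share the tissue with lymphocytes and with macrophages that break down old red cells.

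Certain arrays stood apart before any enzyme was considered. By Xist, read at 10.89 and 10.54 in controls 1 and 2 and at most 4.29 elsewhere, and by the Y-linked Eif2s3y, controls 1 and 2 were female and the remaining 4 spleens male, so sex was tied in part to genotype. Erythroid markers, a list of 13 measured genes of the red cell membrane and related functions that holds no heme enzyme, had mean values of 6.17, 7.91 and 7.76 in controls 1, 2 and 3 and of 9.40, 7.06 and 9.05 in DX2 1, 2 and 3. The list includes Slc4a1, Rhag and Epor. The liver transcript Alb read 10.64 in control 3 and 8.71 in DX2 1, against 4.87 to 6.22 in the other arrays. B cell markers, which mark the main lymphocyte of spleen, averaged between 9.94 and 10.34 in control and between 8.14 and 8.92 in DX2 arrays.

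The 6 enzymes that act after the first step followed one another from spleen to spleen, while Alas1 did not follow them. DX2 1 and DX2 3 were the highest 2 spleens for each of the 6, an order that 11.1% of all genes shared, and DX2 2 lay among the controls or below them. All 7 measured genes had a higher mean in DX2 than in control, with a median difference of 0.96 against 0.01 over all genes, of which 51.6% were higher. None passed limma's test at an adjusted p of 0.05 (0 of 7, against 0.316% of all genes in either direction). At an unadjusted p under 0.05 (limma) there was 1 higher enzyme, Uros, against 8.13% of all genes. For differences of single genes limma was the only tool run. For 0 of the 7 did the 3 DX2 spleens lie entirely to one side of the 3 controls, which they did for 22.0% of all genes.

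**Figure D1:**
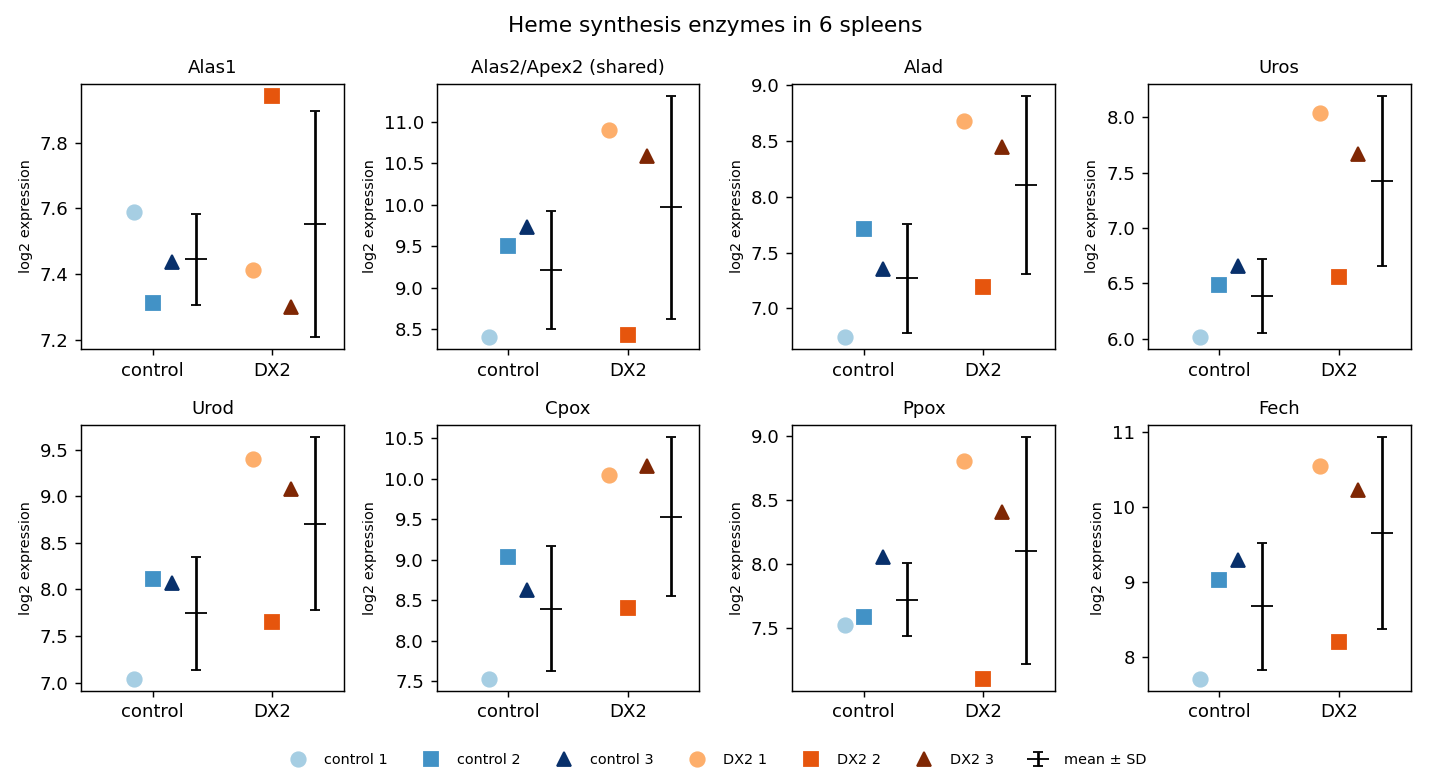
Log2 expression of the 7 measured enzymes and of the probe set shared by Alas2 and Apex2, 1 point per spleen, with the mean and SD of each group of 3 beside the points and a separate vertical scale in each panel. DX2 1 and DX2 3 are highest in every panel but that of Alas1, where DX2 2 is highest at 7.94.

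Alas1, the housekeeping enzyme of the committed step, read 7.59, 7.31 and 7.44 in controls 1, 2 and 3 and 7.41, 7.94 and 7.30 in DX2 1, 2 and 3. The groups overlapped, DX2 2 was the highest spleen and DX2 3 the lowest. The difference was 0.11 (SE 0.18, 95% interval -0.32 to 0.53), with an adjusted p of 0.827 (limma, Benjamini-Hochberg). On the linear scale the interval runs from 0.801-fold to 1.45-fold. Without DX2 2 the difference was -0.090, so even its sign rested on that array. Alas1 is abundant in liver. In control 3 and DX2 1, the arrays with the most Alb, it read 7.44 and 7.41, within the range of the other 4 arrays. Whether liver RNA added to the Alas1 values was not tested.

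The erythroid isoenzyme could not be read alone. The probe set shared by Alas2 and Apex2, the latter a DNA repair endonuclease, read 8.40, 9.50 and 9.73 in controls 1, 2 and 3 and 10.90, 8.43 and 10.58 in DX2 1, 2 and 3. DX2 1 and DX2 3 lay above all controls, and DX2 2 was level with the lowest control. With all 41345 probe sets fitted together the difference was 0.76 (SE 0.68, adjusted p = 0.644 by limma). Subtracting Alas1 within each array gave 0.81, 2.19 and 2.30 in control and 3.49, 0.48 and 3.29 in DX2 spleens. This within-array difference changed by 0.65 between the groups (exact two-sided permutation test over the arrays, p = 0.6, the smallest possible with 3 against 3 being 0.1). Without DX2 2 the change was 1.62, without DX2 1 it was 0.12, and without control 1 it was 0.18.

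Alad, the cytosolic enzyme that condenses aminolevulinate to porphobilinogen, read 6.74, 7.71 and 7.35 in controls 1, 2 and 3 and 8.68, 7.19 and 8.44 in DX2 1, 2 and 3. DX2 1 and DX2 3 lay 1.41 and 1.17 above the mean of 7.27 ± 0.49 (SD, n = 3) in control, and DX2 2 lay inside the control range. The difference was 0.84 (SE 0.41), 1.79-fold, with an adjusted p of 0.374 (limma). It was 0.55 without DX2 1 and 1.29 without DX2 2.

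Uros, which closes the ring to uroporphyrinogen III, had the smallest p among the enzymes. It read 6.01, 6.49 and 6.66 in controls 1, 2 and 3 and 8.04, 6.56 and 7.67 in DX2 1, 2 and 3. DX2 2 lay between controls 2 and 3, and the other DX2 spleens were above every control. The difference was 1.04 (SE 0.37), 2.05-fold with a 95% interval of 1.13 to 3.72, and the adjusted p was 0.232 (limma). Without DX2 2 it was 1.47 (SE 0.22) and passed at an adjusted p of 0.0395, as 0.893% of all genes did in the higher direction in that fit. Leaving out that array raised the number of genes called from 70 to 370, so the call came with many others.

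Urod, which removes carboxyl groups in the last cytosolic step, read 7.04, 8.11 and 8.07 in controls 1, 2 and 3 and 9.40, 7.65 and 9.08 in DX2 1, 2 and 3. Control 1 was the lowest spleen and DX2 2 the next. The difference was 0.96 (SE 0.48), 1.95-fold, with an adjusted p of 0.383 (limma). Without DX2 2 it was 1.49, without control 1 it was 0.61 and without DX2 1 it was 0.62.

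Cpox, the coproporphyrinogen oxidase of the mitochondrial intermembrane space, read 7.53, 9.04 and 8.62 in controls 1, 2 and 3 and 10.05, 8.40 and 10.16 in DX2 1, 2 and 3, and was the only enzyme of the 7 with DX2 3 as its highest spleen. The control spleens spanned 1.50 and the DX2 spleens 1.75. The difference was 1.14 (SE 0.54), 2.20-fold, with a 95% interval of 0.922-fold to 5.25-fold and an adjusted p of 0.359 (limma). It was 0.71 without control 1 and 1.70 without DX2 2.

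Ppox, which oxidises protoporphyrinogen, differed least among the enzymes after the first step. It read 7.53, 7.59 and 8.05 in controls 1, 2 and 3 and 8.81, 7.11 and 8.41 in DX2 1, 2 and 3. DX2 2 was the lowest of all 6 spleens, and DX2 1 and DX2 3 were the highest. The difference was 0.38 (SE 0.41, adjusted p = 0.699 by limma), and it was 0.034 without DX2 1, 0.23 without DX2 3 and 0.88 without DX2 2.

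Fech, the ferrochelatase that inserts iron and carries an iron-sulfur cluster, varied most between spleens. It read 7.71, 9.02 and 9.29 in controls 1, 2 and 3 and 10.55, 8.19 and 10.22 in DX2 1, 2 and 3. The 2.36 between DX2 1 and DX2 2 was larger than the difference of 0.98 (SE 0.65) between the groups, whose adjusted p was 0.519 (limma). Leaving out 1 array moved that difference to 0.50 (without control 1), 0.53 (without DX2 1) or 1.71 (without DX2 2). Its SD was 0.85 in control and 1.28 in DX2 spleens, above that of 99.6% of genes in each group.

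**Figure D2:**
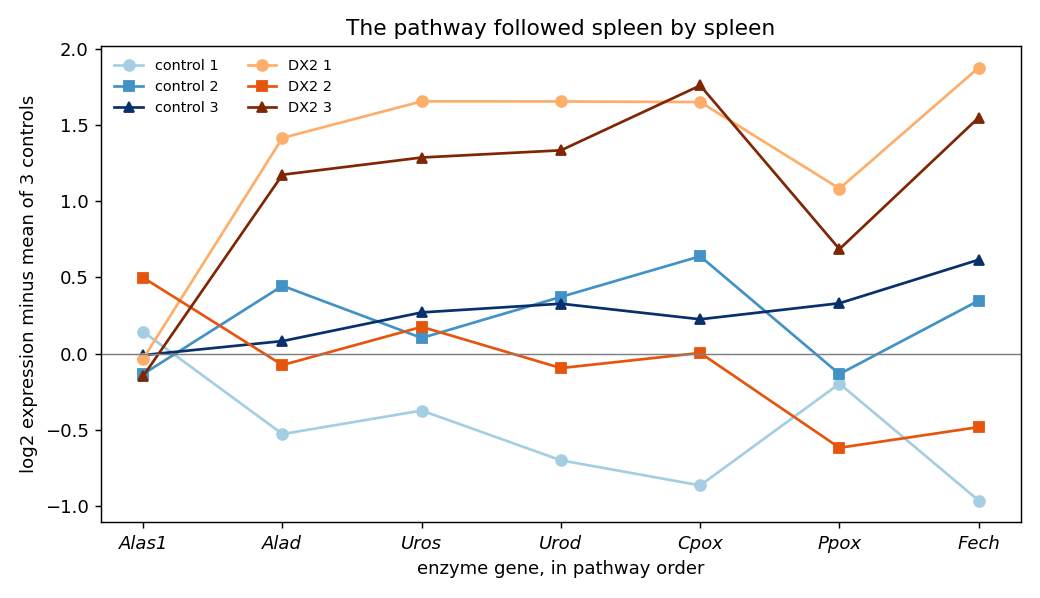
Log2 expression minus the mean of the 3 controls (vertical axis) for the 7 measured enzymes in pathway order (horizontal axis), 1 line per spleen. The lines of DX2 1 and DX2 3 run between 0.69 and 1.88 from Alad to Fech and lie near 0 at Alas1, DX2 2 starts at 0.50 and ends at -0.48, and control 1 is lowest from Alad to Cpox and at Fech.

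The spread within groups was thus wide for most of these genes, though not for Alas1 in control (SD 0.14). A difference above their median of 0.96 was held by 0.987% of all genes. Over the 7 enzymes the median SD was 0.49 in control and 0.89 in DX2 spleens, against 0.14 and 0.17 over all genes, and the standard errors had a median of 0.41 against 0.14. Averaged over the 6 enzymes after the first step, controls 1, 2 and 3 read 7.09, 7.99 and 8.01 and DX2 1, 2 and 3 read 9.25, 7.52 and 8.996. Control 1 was the lowest spleen for 5 of the 7 enzymes, a place it held for 17.4% of all genes. Over the 6 arrays, which share the split into groups, Pearson's r as a measure of likeness lay between 0.79 and 0.99 for the 15 pairs of these 6 enzymes. For Alas1 with each of them it lay between -0.68 and -0.42.

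Erythroid markers moved with the enzymes. All 13 had a higher mean in DX2 (median difference 1.24), and 0 of 13 passed, against 0.316% of all genes in either direction. The mean of the 13 ranged from 6.17 to 7.91 in control and from 7.06 to 9.40 in DX2 spleens. As a description over 6 arrays, r between an enzyme and this mean was 0.98 or more for Alad, Urod, Cpox and Fech, 0.95 for Uros, 0.85 for Ppox and -0.60 for Alas1. With the erythroid mean as a covariate in the limma fit, the median difference of the 7 enzymes was 0.13. In that fit Uros differed by 0.42, Cpox by 0.19, Alad by 0.13, Urod by 0.11, Fech by -0.18, Ppox by -0.23 and Alas1 by 0.37. None of the 7 passed there (adjusted p between 0.288 and 0.756), where 0.176% of all genes did. In whole spleen, more erythroid cells and more enzyme RNA per cell cannot be told apart.

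**Figure D3:**
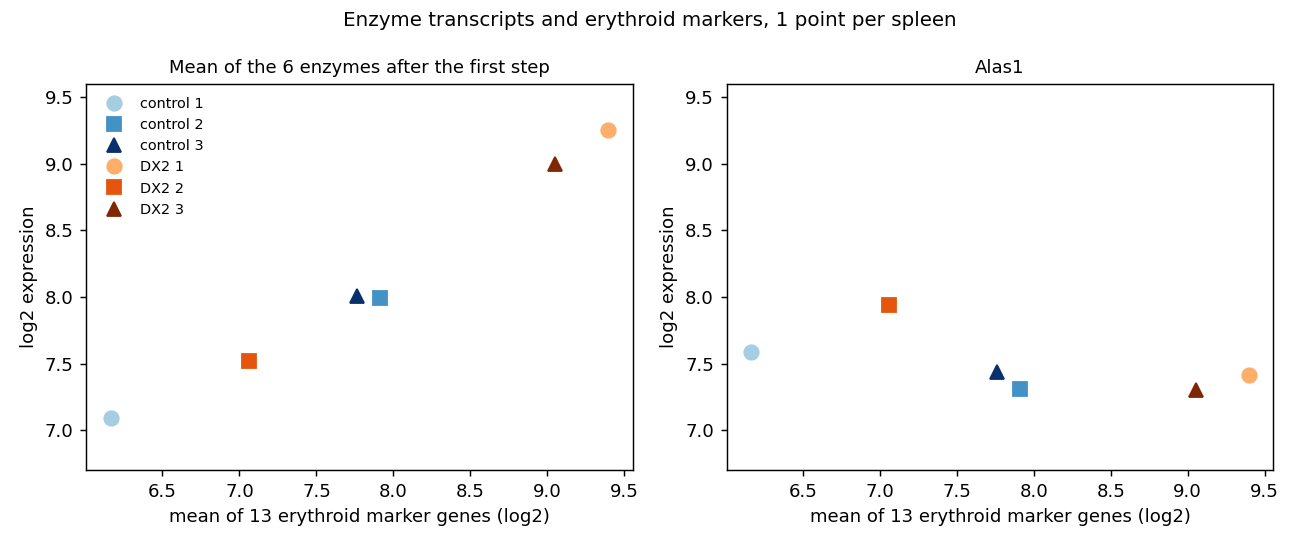
Mean log2 expression of the 6 enzymes after the first step (left) and of Alas1 (right) against the mean of 13 erythroid marker genes, 1 point per spleen, on the same vertical scale. In the left panel the spleens run from control 1 (6.17, 7.09) to DX2 1 (9.40, 9.25), and in the right panel Alas1 stays between 7.30 and 7.94.

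Other cell types moved as well, and their part in the enzymes' differences was not tested. Markers of dividing cells were higher in DX2 for 11 of 11 genes (median 1.09), and 0 passed, against 0.316% of all genes in either direction. Their means were 6.90, 7.98 and 7.81 in controls 1, 2 and 3 and 8.99, 8.16 and 8.85 in DX2 1, 2 and 3. For 8 of these 11 the groups did not overlap, against 22.0% of all genes. Red pulp macrophage markers averaged 8.52 to 8.70 in control and 9.17 to 9.29 in DX2 spleens. Of these 9, 1 was higher past the threshold, Cd5l, against 0.316% of all genes in either direction. The groups did not overlap for 6 of the 9, all on the higher side, against 22.0% of all genes in either direction. Neutrophil markers averaged 9.52 and megakaryocyte and platelet markers 9.52 in DX2 1, against at most 8.26 and 8.00 in any other array. B cell markers were lower for 8 of 8 genes, 3 of them past the threshold, against 62 called lower among all 22180 genes. The groups did not overlap for 8 of these 8, against 22.0% of all genes in either direction. With the replicate number as a block, the calls over all genes went from 70 to 1, with 0 lower, so none of the 3 B cell calls was kept.

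Sex was tied in part to the groups, and the sex term lowered most of the differences. With it, Uros differed by 0.77, Cpox by 0.91, Alad by 0.76, Urod by 0.64, Fech by 0.37, Ppox by 0.05 and Alas1 by 0.12. The same differences come from the 4 male spleens, 1 control against 3 DX2, by construction. None of the 7 passed with the term (adjusted p between 0.733 and 0.989, limma).

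**Figure D4:**
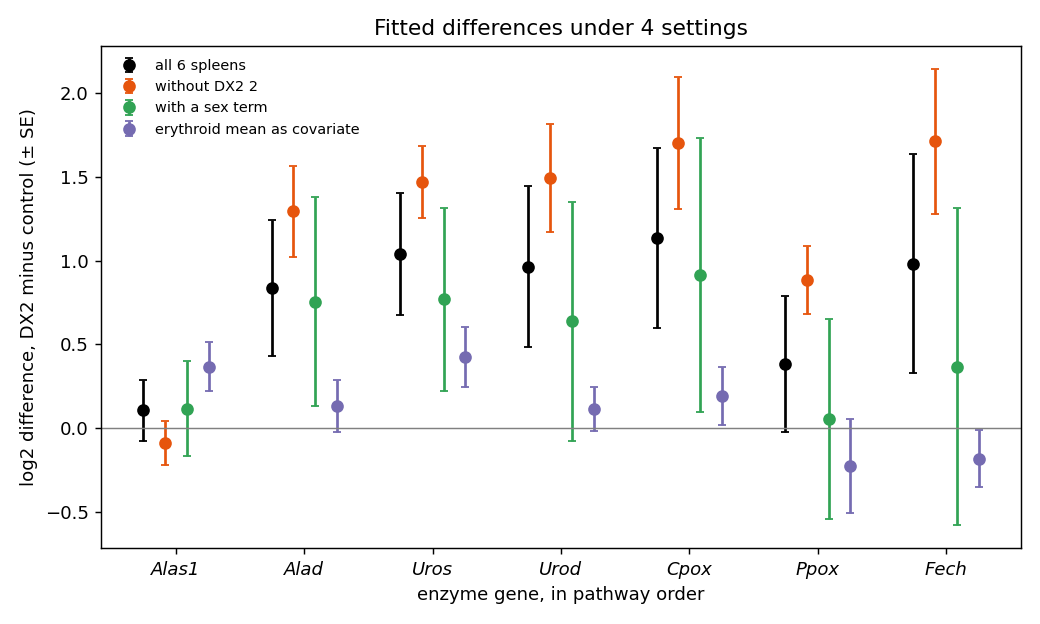
Fitted log2 difference, DX2 minus control, with its standard error, for the 7 measured enzymes (horizontal axis) in 4 limma fits, coloured as in the key. Without DX2 2 the 6 enzymes after the first step lie between 0.88 and 1.71, and with the erythroid mean as a covariate all 7 lie between -0.23 and 0.42.

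Promoter sequences were looked at because 6 of the enzymes moved together across the spleens and Alas1 did not. The windows are the 250 bases before a transcription start in RefSeq (GRCm38.p6), taken for 9 starts of 6 of the 7 genes. Fech was left out of the search, so the counts below do not cover it. Searched on both strands were GATAA (the core bound by GATA factors such as the erythroid GATA1), CACCC (the box bound by KLF1), CACGTG (the E-box) and CGCATGC (the core of the NRF1 motif). In the 9 windows no match overlapped that of another motif, and the motifs were chosen with the expression results known. Shown are a Uros start that lies inside the gene, the Cpox start, the Urod start and the upstream Alas1 start, with matches in capitals.
Uros, chr7:133702501-133702750, minus strand: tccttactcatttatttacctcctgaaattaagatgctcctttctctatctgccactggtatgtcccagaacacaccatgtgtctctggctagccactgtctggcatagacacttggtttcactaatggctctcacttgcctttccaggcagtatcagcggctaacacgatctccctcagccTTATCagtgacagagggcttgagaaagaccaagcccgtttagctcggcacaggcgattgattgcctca
Cpox, chr16:58669958-58670207, plus strand: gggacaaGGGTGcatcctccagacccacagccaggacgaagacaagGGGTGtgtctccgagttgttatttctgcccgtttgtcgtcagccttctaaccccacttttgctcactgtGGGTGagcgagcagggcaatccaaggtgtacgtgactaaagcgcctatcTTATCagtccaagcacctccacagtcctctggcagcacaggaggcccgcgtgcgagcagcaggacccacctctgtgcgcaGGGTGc
Urod, chr4:116994414-116994663, minus strand: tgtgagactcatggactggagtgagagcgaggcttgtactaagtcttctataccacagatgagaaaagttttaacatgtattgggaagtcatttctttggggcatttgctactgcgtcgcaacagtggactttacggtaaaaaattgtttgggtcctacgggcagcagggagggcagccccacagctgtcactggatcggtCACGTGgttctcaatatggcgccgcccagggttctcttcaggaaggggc
Alas1, chr9:106247955-106248204, minus strand: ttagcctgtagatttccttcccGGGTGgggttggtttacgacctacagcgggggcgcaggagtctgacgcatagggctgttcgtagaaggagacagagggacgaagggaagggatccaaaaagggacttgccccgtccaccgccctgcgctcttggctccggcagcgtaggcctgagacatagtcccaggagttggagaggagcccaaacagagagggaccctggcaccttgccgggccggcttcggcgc

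GATAA was found at 1 start of Uros and at that of Cpox, in each as its complement TTATC, and in 22.6% of all 32851 promoter windows of this length. CACCC stood at 4 of the 9 starts, 1 of Alad, both of Alas1 and that of Cpox, against 52.0% of all windows, and the Cpox window held 4 matches. The E-box stood in windows of Alad, Urod and Uros, 4 of the 9 starts, against 6.02% of all windows. The NRF1 motif stood at the other Alas1 start alone among the 9, against 3.02% of all windows. A match describes the letters of a window and is not a binding site.

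Genes that supply the pathway were mostly higher in DX2, and 0 of 18 passed, against 0.316% of all genes in either direction. Of the 18 measured for substrates, cofactors and carriers, 16 were higher (median 0.62). Slc25a38, the mitochondrial glycine carrier, read 6.93, 7.22 and 7.33 in controls 1, 2 and 3 and 8.33, 7.24 and 7.94 in DX2 1, 2 and 3, a difference of 0.68 (SE 0.27). Abcg2, a porphyrin exporter, differed by 1.16 (SE 0.49) and Slc25a39, a mitochondrial carrier, by 0.59 (SE 0.23), and both overlapped between groups. Hebp1, a heme-binding protein, was higher in all 3 DX2 spleens, by 0.77 (SE 0.21, adjusted p = 0.148 by limma). So was Tspo, an outer membrane protein that binds porphyrins, by 0.65 (SE 0.19, adjusted p = 0.166 by limma). The groups did not overlap for 3 of the 18 on the higher side and 1 on the lower, against 22.0% of all genes in either direction. Tspo was highest in DX2 2, at 8.05. The succinyl-CoA ligase subunits Suclg1, Suclg2 and Sucla2 differed by 0.08, -0.24 and -0.14, and Suclg2 was lower in all 3 DX2 spleens.

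The iron-sulfur assembly genes, which make the kind of cluster that ferrochelatase holds, were higher for 10 of 11 (median 0.27). Of these 11, 0 passed, against 0.316% of all genes in either direction. Glrx5, a glutaredoxin that hands clusters on and is required for red cell heme synthesis, read 7.58, 8.63 and 8.30 in controls 1, 2 and 3 and 9.80, 8.18 and 9.63 in DX2 1, 2 and 3. Its order of high and low spleens was that of Alad. Bola3, Hspa9 and Iscu were higher in all 3 DX2 spleens by 0.38, 0.27 and 0.21, and Hscb differed by 0.33. The adjusted p was between 0.205 and 0.359 for these 4 (limma). The groups did not overlap for 3 of the 11, against 22.0% of all genes in either direction.

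Of 14 genes listed as regulators, not all of them of the first step, 9 were higher (median 0.22). Of the 14, 0 passed, against 0.316% of all genes in either direction. The groups did not overlap for 3 on the higher side and 3 on the lower, against 22.0% of all genes in either direction. Klf1 and Gata1, erythroid transcription factors, differed by 1.83 (SE 0.71) and 0.96 (SE 0.49), and both were highest in DX2 1 and DX2 3. Zfpm1, the GATA1 partner FOG1, read 6.54, 7.14 and 6.87 in controls 1, 2 and 3 and 8.68, 7.55 and 8.92 in DX2 1, 2 and 3. Its difference of 1.53 (SE 0.35), with no overlap, had an adjusted p of 0.108 (limma). Eif2ak1, the kinase that halts translation when heme is short, differed by 0.68 (SE 0.27) and overlapped.

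Ppargc1a, the coactivator that raises Alas1 transcription in liver, was the regulator nearest to the threshold. It read 4.46, 4.38 and 4.47 in controls 1, 2 and 3 and 3.77, 3.93 and 3.87 in DX2 1, 2 and 3, low on every array. The difference was -0.58 (SE 0.10) with an adjusted p of 0.0733 (limma). Foxo1, another activator of Alas1, was lower in all 3 DX2 spleens by -0.66 (SE 0.23, adjusted p = 0.227 by limma). Nrf1, a transcription factor, and Clpx and Lonp1, parts of mitochondrial proteases that act on ALAS, differed by -0.04, 0.03 and 0.26. Alas1 itself differed by 0.11, as given above.

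Globin transcripts, whose proteins take up most of the heme made, had group means that differed by -0.11 to 0.85. The adult alpha and beta genes share probe sets, so none was named singly. The brighter probe set shared by Hba-a1 and Hba-a2 read 12.42, 12.69 and 12.70 in controls 1, 2 and 3 and 12.90, 11.86 and 12.73 in DX2 1, 2 and 3, close to the top of the scale at 13.28. Its group means differed by -0.11, those of the dimmer alpha set by 0.02. The 3 probe sets shared by Hbb-b1, Hbb-b2 and Hbb-bs had group means that differed by 0.25, 0.54 and 0.85. The 0.85 came from the dimmest of the 3, with means of 4.98 in control and 5.83 in DX2 spleens. DX2 1 was the highest spleen in all 5 shared sets, and DX2 2 the lowest in 3 of them. The difference between these shifts and those of the enzymes was not tested.

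Heme breakdown genes were split, with 6 of 10 higher (median 0.16) and 0 passing, against 0.316% of all genes in either direction. The groups did not overlap for 3 of the 10, all on the higher side, against 22.0% of all genes in either direction. Slc48a1, which carries heme out of the macrophage phagolysosome, was higher in all 3 DX2 spleens, by 0.67 (SE 0.16, adjusted p = 0.119 by limma). Blvra and Blvrb, the biliverdin reductases, differed by 0.33 (SE 0.12) and 0.82 (SE 0.37). Blvra was higher in all 3 DX2 spleens, while Blvrb, which is abundant in red cells, was at 8.05 in DX2 2, between controls 1 and 3. Hmox1, the inducible heme oxygenase that opens the ring, read 9.77, 9.78 and 10.05 in controls 1, 2 and 3 and 10.16, 9.41 and 9.95 in DX2 1, 2 and 3, a difference of -0.03 (SE 0.20). The constitutive oxygenase gene Hmox2, the iron exporter gene Slc40a1 and the plasma heme binder gene Hpx differed by -0.14, -0.33 and -0.32, all with overlap.

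The genes closest to each enzyme over the 6 arrays were named by Pearson's r, a measure of likeness over few points that share 2 groups. Alas1 was closest to Ift74, Plekhb2 and Ctsh, with r between 0.988 and 0.999. Alad was closest to Slc6a20a, Ppp1r15a and Glrx5, and Uros to Dapk2, Cdc42bpa and Bcl2l1. Urod was closest to Add2, Btnl10 and Slc16a1, of which Add2 is on the erythroid list, and Cpox to Bora, Brca1 and the Mir375 gene. Ppox was closest to Col14a1, Cracd and Tbccd1, and Fech to Apeh, Cd24a and Cyp4b1-ps2. Every r in these lists was at least 0.988, and 0 of the 21 genes passed (limma), against 0.316% of all genes. As the 21 were picked for likeness to enzymes that did not pass, this count is not a separate result.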

How the data were processed

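Expression was measured on 1 Affymetrix array for each of 6 mouse spleens, 3 DX2 and 3 control. The log2 values that the authors deposited were made with RMA, per the submitters' processing notes (background correction, normalization between arrays, summary per probe set), with version and annotation not given in the sources used here. The log2 scale was inferred from the range of 0.771 to 13.28. RMA compresses large differences.

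By the supplied platform annotation, 23521 of 41345 probe sets had 1 symbol, 1814 several and 16010 none. Each of 22180 genes took its one-symbol probe set with the highest mean. Groups and replicate numbers came from the titles. Differences were fitted with limma 3.58.1 in R 4.3.3 (lmFit, eBayes, no covariate or filter), with Benjamini-Hochberg adjustment over all genes, a threshold of 0.05 and 95% intervals, and the fit was tested on simulated data. The text names all members, up to 5 genes per list by smallest p with those that define it, and 3 genes per member by r over named symbols. The members, lists and alternatives were chosen with earlier results of these data known. Alternatives were a replicate block, arrays left out, filters, variance models, array weights, 2 normalizations, other probe set rules, a sex term, male spleens alone, an erythroid covariate and a looser threshold. A fit of all probe sets was chosen after seeing the data.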

Additional observations from a re-analysis of the deposited data

How the results depend on the processing

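Over 1 array left out at a time, the median difference of the 7 enzymes ranged from 0.55 to 1.47, the number of them called from 0 to 1 (Uros without DX2 2), the number of all genes called from 1 to 370, and the change of the shared Alas2 and Apex2 probe set minus Alas1 from 0.12 to 1.62. The count over all genes, 70 here, was 125 without the 40% dimmest genes, 547 with array weights and 2 with centred arrays. It was 2 with a sex term, 39 with the erythroid covariate and 394 at an adjusted p under 0.1. With all 41345 probe sets tested together 2 were called, a count of probe sets and not of genes. In each of these settings 0 of the 7 enzymes was called. With the replicate block 1 gene and 0 enzymes were called, the median stayed 0.96, and the change of the shared probe set minus Alas1 had an exact paired p of 0.75. Same-numbered arrays had correlations of -0.32, -0.14 and 0.07 in their deviations from the group means. With 3 arrays in a group, whose deviations sum to 0, these values cannot settle whether same-numbered arrays share more than a number. With the erythroid covariate the median was 0.13, Fech turned to -0.18 and Ppox to -0.23. Alas1 ranged from -0.090 (without DX2 2) to 0.23 over arrays left out, and was -0.022 with array weights. Alad, Uros, Urod and Cpox kept their direction in all 19 settings run for them, but these are not 19 separate checks. The replicate block, the dim filter, the variance models, the probe set rules and the fit of all probe sets left their differences unchanged. The sex term and the male spleens alone gave the same differences as each other. Other probe set rules could not alter the shared probe set or Alas1, which have 1 probe set each, and were not run for that contrast. The median standard error was 0.41 for these enzymes and 0.14 over all genes.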

Other observations

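Among 19 measured genes of heme proteins other than globins, and of heme modification, 12 were higher in DX2 spleens (median 0.13). By limma 0 of the 19 passed, against 0.316% of all genes in either direction. An unadjusted p under 0.05 (limma) was reached by 4 of the 19, in either direction, against 16.0% of all genes. The groups did not overlap for 2 of the 19 on the higher side and 1 on the lower, against 22.0% of all genes in either direction. Cat, the catalase that is abundant in red cells, read 9.75, 9.84 and 10.10 in controls 1, 2 and 3 and 10.40, 9.30 and 10.31 in DX2 1, 2 and 3, with DX2 1 and DX2 3 highest and DX2 2 lowest, as for Ppox. Cycs, cytochrome c, read 9.05, 9.44 and 9.36 in controls 1, 2 and 3 and 9.77, 10.01 and 9.69 in DX2 1, 2 and 3, and Cyc1, the cytochrome c1 of complex III, was likewise higher in all 3 DX2 spleens, by 0.46 (SE 0.11). Cycs and Cyc1 were highest in DX2 2, the spleen in which 5 of the 6 enzymes after the first step lay within the control range. Cyba, the small subunit of the phagocyte oxidase cytochrome, was also highest in DX2 2, at 9.17, and Cyb561a3, a lysosomal cytochrome, was lower in all 3 DX2 spleens by -0.70 (SE 0.29). Differences between these genes and the enzymes were not tested.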
